A study of Mus musculus with 32 samples.

Results

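Colony-stimulating factors and their receptors were examined by gene symbol: the ligands Csf1, Il34, Csf2 and Csf3 and the receptor genes Csf1r, Csf2ra, Csf2rb and Csf2rb2. The gene count table held 39676 genes, and 5 of the 8 listed members had a row in it (Csf1, Il34, Csf2, Csf3 and Csf1r), while Csf2ra, Csf2rb and Csf2rb2 were not analysed here. Whole mesothelioma tumors from 32 untreated female mice aged 8 to 10 weeks were profiled by polyA RNA-seq, 1 tumor a mouse, in 4 groups of 8. AB1 is a mouse mesothelioma cell line that was grown in BALB/c mice after inoculation of 500000 cells, and AE17 is a second line that was grown in C57BL/6 mice after inoculation of 1000000 cells. In each model, cells were placed either in the pleural cavity (intrapleural, IPL) or under the skin of the flank (subcutaneous, SC), and tumors were taken at day 10. Each model is 1 transplanted cell line in immune-competent hosts, and lungs and surrounding tissue were removed from IPL tumors before RNA extraction. Line, strain and number of cells inoculated differed together between the models, so that these cannot be told apart in any comparison of AB1 with AE17. Within a site no sequencing lane held tumors of both models, and lane 2 held AB1 SC and AE17 IPL tumors.

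CSF1 and IL-34 are separate ligands of 1 receptor tyrosine kinase, CSF1R, which monocytes, macrophages, microglia and osteoclasts need for survival and differentiation. GM-CSF, the product of Csf2, signals through an alpha chain (Csf2ra) and the beta common chain (Csf2rb) and acts on granulocytes, macrophages and dendritic cells. G-CSF, the product of Csf3, acts on the neutrophil lineage through a receptor of its own (Csf3r), which was not among the members and is given for reference. In tumors, CSF1 is known as a recruiting and survival signal for macrophages, and mesotheliomas are known for a high macrophage content.

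The transcripts of Csf2 and Csf3 are textbook cases of short-lived cytokine messages that carry AU-rich elements in the 3′ UTR, where repeats of ATTTA (in DNA letters) bind proteins that shorten mRNA life. The 30 bases of each 3′ UTR that hold the most ATTTA are shown because they set these low-level ligands apart in sequence from the abundant Csf1 and Il34. Capitals mark ATTTA, read 5′ to 3′ on the transcript strand, with overlapping copies counted.
Csf2 3′ UTR, bases 230 to 259 of 317: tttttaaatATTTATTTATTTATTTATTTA
Csf3 3′ UTR, bases 24 to 53 of 669: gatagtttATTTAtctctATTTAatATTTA
Both sequences come from GENCODE M21 transcripts on GRCm38. The Csf2 window held 5 copies, a number reached by 0.227% of 20738 mouse 3′ UTRs in any 30 bases, and the Csf3 window held 3, reached by 2.3%. Over the whole 3′ UTR, Csf2 had 9 copies (28.4 per kb, percentile 99.9) and Csf3 had 6 (8.97 per kb, percentile 98.2), against a median of 1.17 per kb. The longer element TTATTTATT was found 4 times in Csf2 and in 7.07% of all 3′ UTRs, and was not found in Csf3. Csf1 had 4 copies of ATTTA in 2111 bases (1.89 per kb, percentile 62.8), Il34 had 1 in 439 bases (2.28 per kb, percentile 68.8) and Csf1r had 3 in 1669 bases (1.8 per kb, percentile 61.3). Only the transcript strand was searched, and these matches describe the annotated sequence, not mRNA decay in these tumors.

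In GENCODE M21 (GRCm38), Csf1 lies on chr3:107741048-107760469 (minus strand), Il34 on chr8:110741829-110805924 (minus strand) and Csf1r on chr18:61100598-61132149 (plus strand). Csf2 (chr11:54247271-54249667, minus strand) and Csf3 (chr11:98701263-98703629, plus strand) share a chromosome. Exons of Csf2, Il34 and Csf1r overlap antisense genes by 96, 97 and 873 bases. Whether counting used strand is not given in the sources used here, so that reads in those bases cannot be assigned to a strand.

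Library totals ran from 15432258 to 20649645 counts, and 3 counts corresponded to 0.139 to 0.190 CPM (TMM-scaled counts per megacount of library). Replicate libraries differed by more than sampling noise in all 112 pairs within groups. Profiles were least like those of their group in AB1 IPL mice 2 and 4, with a median correlation of 0.935 and 0.938 with the other mice, followed by AE17 IPL mouse 5 (0.955), AB1 IPL mouse 3 (0.957) and AE17 IPL mouse 8 (0.959). All AB1 IPL tumors were sequenced in lane 3, with 2 of the AB1 SC tumors, and all AE17 SC tumors in lane 1, with 3 of the AE17 IPL tumors. The other 6 AB1 SC and 5 AE17 IPL tumors were in lane 2. Mesothelial markers, which would mark the labelled tumor type, were low: the summed level of 5 genes was 0.303 to 76.4 CPM, and 76.4 CPM was that of AB1 IPL mouse 2. Transcripts of other tissue were present at both sites, and the summed level of 8 skeletal muscle genes ranged from 104 to 4390 CPM in AB1 IPL against 53.4 to 492 CPM in AB1 SC, 56.4 to 808 CPM in AE17 IPL and 45.3 to 1243 CPM in AE17 SC.

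Levels were set per kb of exon, so that genes can be compared with each other. Those of Csf1r, Csf1 and Il34 fell in the same order of group means in every group. Csf1r came first (62.2 to 75.5 CPM per kb), followed by Csf1 (39.9 to 52.4) and Il34 (13.2 to 30.5). Csf2 (0.391 to 1.94 CPM per kb) and Csf3 (0.137 to 0.961) were far lower, and their order to each other differed between groups: the mean of Csf3 was above that of Csf2 in AE17 IPL and below it in the other groups. Of the CSF1R-ligand transcripts per kb, Il34 made up the smaller part: 37.1% ± 4.03 (SD, n = 8) in AB1 IPL, 36.8% ± 3.19 in AB1 SC, 19.98% ± 2.24 in AE17 IPL and 23.8% ± 2.94 in AE17 SC.

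**Figure D1:**
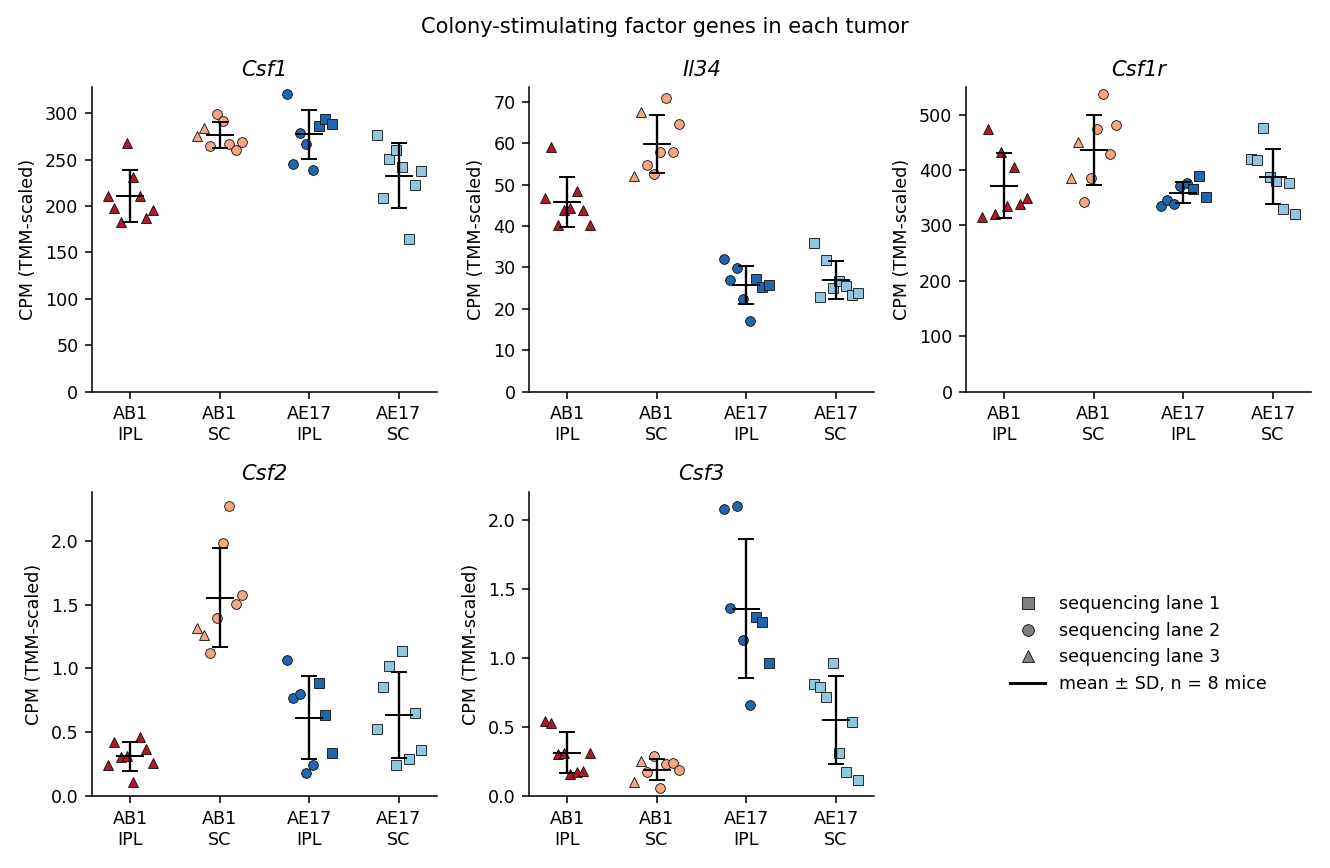
CPM of Csf1, Il34, Csf1r, Csf2 and Csf3 (y axes, each from 0) in each of 32 tumors, by group (x axes). Symbols give the sequencing lane, and bars give the mean ± SD of 8 mice. AB1 IPL and AB1 SC tumors do not overlap in Csf2, and every AB1 tumor lies above every AE17 tumor in Il34.

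The first comparison asked how the pleural site differed from the subcutaneous site in AB1 tumors. Csf2 was 4.94-fold lower in IPL tumors, and both CSF1R ligands were modestly lower, Csf1 by 1.33-fold and Il34 by 1.32-fold. Of the 4 members tested, 3 passed an adjusted p of 0.05 (edgeR's quasi-likelihood test, Benjamini-Hochberg adjustment over 14645 genes), all lower in IPL; of all genes tested, 23% passed and 10.7% passed as lower. Fewer cells of a type and less RNA per cell cannot be told apart in such bulk samples.

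Csf2, the GM-CSF gene, had 0.108 CPM in the lowest AB1 IPL tumor, 0.310 in the median and 0.467 in the highest, which are 2 to 8 reads a library. In AB1 SC tumors it had 1.12, 1.45 and 2.27 CPM, or 19 to 39 reads. All 8 IPL tumors lay below all 8 SC tumors, a separation shown by 5.03% of all genes tested. The log2 fold change was -2.30 (SE 0.23, edgeR adjusted p = 7.77e-06), and Csf2 ranked 19 among 14645 genes by p, although it entered the test through its level in the SC group, where it is high. Within lane 3 alone, where 8 IPL and 2 SC tumors could be compared, it was -2.08 (adjusted p = 0.0252), and with the lane as a covariate -2.04 (adjusted p = 0.00323). These are not separate checks. Lane 2 held no AB1 IPL tumor, so that the covariate estimate rests on the same 8 IPL and 2 SC tumors.

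Csf1 had 183 CPM in the lowest AB1 IPL tumor, 204 in the median and 267 in the highest, against 259.7, 272 and 299 in AB1 SC. IPL mouse 4 had the highest value and was the one IPL tumor inside the SC range. The log2 fold change was -0.41 (SE 0.07, edgeR adjusted p = 0.000819). Il34 had 40.2, 44.1 and 59.1 CPM in AB1 IPL and 52.2, 57.8 and 70.8 in AB1 SC, and again 1 IPL tumor, from mouse 2, reached the SC range. Its log2 fold change was -0.40 (SE 0.09, edgeR adjusted p = 0.00349). With the lane as a covariate, Csf1 (-0.43, adjusted p = 0.0661) and Il34 (-0.40, adjusted p = 0.15) kept their size and did not pass the threshold. The same held within lane 3, with values of -0.47 (adjusted p = 0.144) and -0.45 (adjusted p = 0.236).

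Csf1r, the receptor that both ligands share, had 315 CPM in the lowest AB1 IPL tumor, 344 in the median and 474 in the highest, and 342, 439.6 and 538 CPM in AB1 SC. The groups overlapped widely, with 4 IPL tumors below the SC range and 4 inside it, of which mice 2, 4 and 6 had 406 to 474 CPM. The log2 difference of -0.24 (SE 0.11, 95% interval -0.45 to -0.04) did not pass (edgeR adjusted p = 0.107). Without IPL mice 2 and 4, an alternative chosen after seeing the data, it was -0.36 (adjusted p = 0.00882), and limma-voom with sample quality weights, the form of limma-voom used throughout, gave -0.34 (adjusted p = 0.00581). These weights lower the influence of libraries unlike the rest. Csf3 was at 0.162 to 0.544 CPM (3 to 11 reads) in AB1 IPL and 0.0582 to 0.291 CPM (1 to 5 reads) in AB1 SC, and was too low for the filter of the test. Its mean log2 CPM was 0.46 higher in IPL tumors, and a two-sided exact permutation test gave p = 0.066, with 5 of 8 IPL tumors above the SC range. Csf3r, the G-CSF receptor, had 31.1 ± 12.6 CPM in IPL and 53.5 ± 12.2 in SC tumors (SD, n = 8; log2 fold change -0.80, SE 0.22, edgeR adjusted p = 0.0154), and -0.79 with the lane as a covariate (adjusted p = 0.264).

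**Figure D2:**
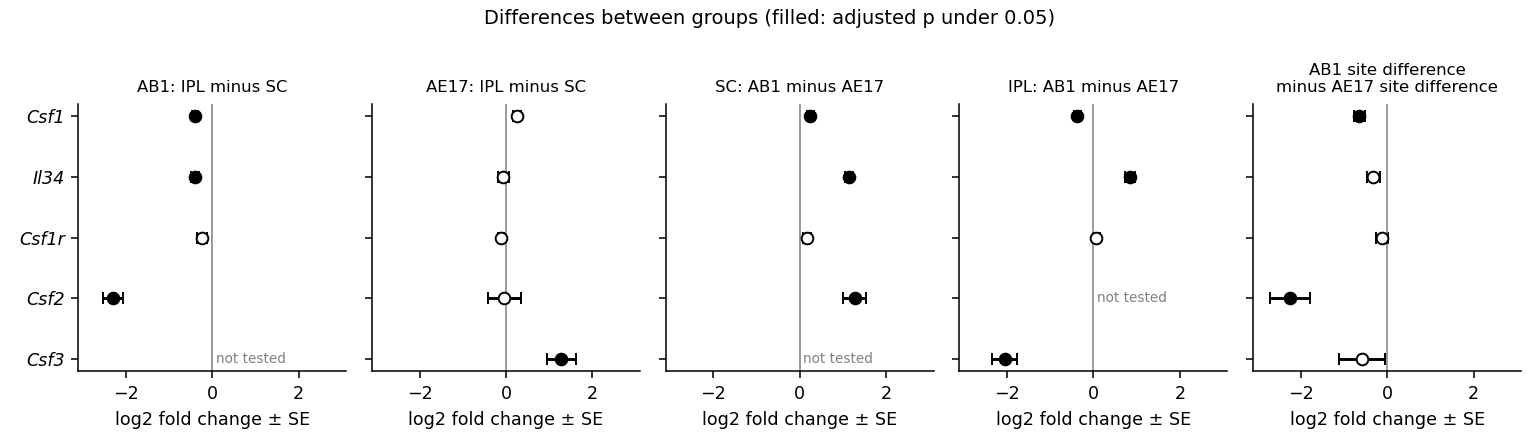
Log2 fold change ± SE (x axes) of Csf1, Il34, Csf1r, Csf2 and Csf3 (y axis) in the 5 comparisons, from edgeR. Filled points passed an adjusted p of 0.05, and "not tested" marks members too low for the filter. Csf2 has the lowest value in AB1 IPL minus SC (-2.30), and Csf3 has the highest in AE17 IPL minus SC (1.28).

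The same question in AE17 tumors gave 1 of 5 members past the threshold, against 5.73% of 14668 genes tested that passed (2.6% as higher and 3.13% as lower). That background moved by over 1.5 times in 12 of 16 fits that left out 1 mouse, from 840 genes to between 316 (without IPL mouse 4) and 2066 (without SC mouse 1). Csf3, the G-CSF gene, was 2.43-fold higher in IPL tumors. It had 0.664 CPM in the lowest IPL tumor, 1.28 in the median and 2.10 in the highest (11 to 35 reads), against 0.121, 0.627 and 0.963 in SC (2 to 16 reads). Of the IPL tumors, 7 of 8 lay above the SC range, and a full separation of the groups was shown by 0.573% of genes. The log2 fold change was 1.28 (SE 0.34, edgeR adjusted p = 0.0396), and Csf3 entered the test through its level in the IPL group. The call was lost with no filter on low counts (1.27, adjusted p = 0.0589), with the lane as a covariate (1.07, adjusted p = 0.271) and within lane 1 (1.07, adjusted p = 0.325). Both lane fits rest on the same 3 IPL and 8 SC tumors, because lane 2 held no AE17 SC tumor. Leaving out 1 mouse at a time ended the call of Csf3 in 11 of 16 fits (IPL mice 1, 2, 3, 4, 6 and 7 and SC mice 2, 5, 6, 7 and 8), with values of 1.12 to 1.43 over the 16.

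Csf1 had 239, 282 and 320.0 CPM (lowest, median and highest) in AE17 IPL and 164, 239.7 and 276 in AE17 SC. Of the IPL tumors, 5 of 8 lay above the SC range, and the log2 difference of 0.25 (SE 0.09, 95% interval 0.08 to 0.42) did not pass in edgeR (adjusted p = 0.0851), while limma-voom with these weights gave 0.29 (adjusted p = 0.00423). Il34 had 17.1 to 32.04 CPM in IPL and 22.9 to 35.8 in SC, and the log2 difference of -0.06 had a 95% interval of -0.29 to 0.18. Csf1r had 335 to 389 CPM in IPL and 320.0 to 475 in SC, with a log2 difference of -0.11 and an interval of -0.25 to 0.03. Csf2 had 0.179 to 1.07 CPM in IPL and 0.241 to 1.14 in SC, and at 3 to 18 reads a library its interval of -0.79 to 0.70 was wide. Csf3r had 32.2 ± 5.95 CPM in IPL and 34.2 ± 11.98 in SC (SD, n = 8; log2 difference -0.08, interval -0.49 to 0.32).

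Whether the site difference itself differed between the models was tested as the interaction of model and site in 1 fit of all 32 tumors. It passed for 2 of 5 members, both negative, and for 20.5% of 15681 genes tested (8.62% as negative). Csf1 was lower in IPL tumors of AB1 and had a higher mean in IPL tumors of AE17, and the difference between the site differences was -0.64 on the log2 scale (SE 0.12, edgeR adjusted p = 0.000378). For Csf2 it was -2.24 (SE 0.46, edgeR adjusted p = 0.00108), and with the lane as a covariate -1.98 (adjusted p = 0.109). Il34 (-0.32, 95% interval -0.62 to -0.03, adjusted p = 0.129), Csf1r (-0.12, interval -0.37 to 0.13) and Csf3 (-0.58, interval -1.62 to 0.45) did not pass. For Il34 the interaction passed in limma-voom (-0.41, adjusted p = 0.0125) and without AE17 IPL mice 5 and 8 (-0.40, adjusted p = 0.0436), and with the lane as a covariate its adjusted p was 0.478.

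The models were next compared within each site, in which a large share of the transcriptome differed. In SC tumors, 3 of 4 members tested were higher in AB1, and 63.7% of all genes passed, 31.2% as higher in AB1. Il34 was 2.21-fold higher in AB1 (log2 1.14, SE 0.10, edgeR adjusted p = 1.35e-08) and all 8 AB1 tumors lay above all AE17 tumors, which held in either direction for 31.4% of genes. Csf2 was 2.42-fold higher in AB1 (log2 1.27, SE 0.27, adjusted p = 0.000583), entered the test through its level in AB1, and 1 AB1 tumor lay within the AE17 range. Csf1 was 1.18-fold higher in AB1 (log2 0.24, SE 0.08, adjusted p = 0.0123), and Csf1r did not pass (log2 0.16, interval -0.03 to 0.34). Csf3 did not pass the filter, and its mean log2 CPM was 0.99 lower in AB1 (two-sided exact permutation p = 0.0123, 2 of 8 AB1 tumors below the AE17 range).

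In IPL tumors, 3 of 4 members tested passed, 1 of them higher in AB1 and 2 lower, against 59.1% of all genes (30.5% as higher and 28.6% as lower). Il34 was again higher in AB1, by 1.80-fold (log2 0.85, SE 0.11, edgeR adjusted p = 3.16e-06). Csf3 was 4.14-fold lower in AB1 (log2 -2.05, SE 0.29, adjusted p = 9.42e-06) and entered the test through its level in AE17, and Csf1 was 1.30-fold lower (log2 -0.37, SE 0.08, adjusted p = 0.000891). The AB1 and AE17 tumors did not overlap in Il34 or Csf3, as for 28.5% of genes. Csf1r had a log2 difference of 0.07 with an interval of -0.10 to 0.24. Csf2 did not pass the filter, and its mean log2 CPM was 0.67 lower in AB1 (two-sided exact permutation p = 0.0474). That p was 0.0556 with a smaller prior count, and it was above 0.05 in 11 of 16 tests that left out 1 mouse (AB1 mice 1, 3, 4, 5, 7 and 8 and AE17 mice 1, 2, 3, 6 and 7), reaching 0.094.

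By group mean, Csf1 was ordered AE17 IPL, AB1 SC, AE17 SC and AB1 IPL, and the ranges of all neighbours in that order overlapped. For Il34 the order was SC then IPL within AB1, and below these SC then IPL within AE17. The 2 AB1 groups overlapped, as did the 2 AE17 groups, and every AB1 tumor lay above every AE17 tumor. For Csf1r the ranges of all 4 groups overlapped.

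Because Csf1r marks the macrophage lineage, its level was set against 12 macrophage genes in the same tumor. Of these genes, 6 fell and 1 rose in AB1 IPL tumors (median log2 difference -0.37, against 0 for all genes), among them Mrc1, the mannose receptor (-0.94, edgeR adjusted p = 0.00845), and C1qa, a complement component (-0.44, adjusted p = 0.0418). Cx3cr1, the fractalkine receptor, rose (1.15, adjusted p = 2.39e-05). In limma-voom 9 of the 12 fell, and without mice 2 and 4 it was 10. Of all genes tested in edgeR, 10.7% passed as lower and 12.3% as higher in AB1. In AE17 none of the 12 passed in edgeR at an adjusted p of 0.05, 3 were higher at an unadjusted p of 0.05, and the median was 0.21. DESeq2 called none there, and limma-voom called 5 higher and 1 lower of the 12 and 3959 of all genes. With the lane as a covariate, Cx3cr1 alone passed in AB1, at edgeR's adjusted p of 0.05, and 2 more were lower at an unadjusted p of 0.05. The summed level of the list was 1459 to 3123 CPM in AB1 IPL, 2184 to 3215 in AB1 SC, 2588 to 3107 in AE17 IPL and 1876 to 3205 in AE17 SC. Its part in the level of Csf1r was not tested.

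Relative to the mean log2 CPM of the macrophage genes, Csf1r stood at 1.59 ± 0.11 in AE17 IPL and 1.78 ± 0.07 in AE17 SC (SD, n = 8). The difference of -0.19 passed a two-sided exact permutation test (p = 0.000777, adjusted p = 0.00311 over 4 such tests), and all 8 IPL tumors lay below the SC median. In AB1 the values were 2.04 ± 0.23 in IPL and 1.93 ± 0.05 in SC tumors (0.11 higher, exact permutation p = 0.203), and IPL tumors fell into 3 values from 2.25 to 2.36 and 5 values from 1.80 to 1.91. Csf1 relative to Csf1r was 0.36 higher in AE17 IPL tumors (-0.38 ± 0.18) than in AE17 SC tumors (-0.74 ± 0.21), with all 8 above the SC median (exact permutation p = 0.00264, adjusted p = 0.00528). In AB1 the same value was -0.81 ± 0.23 in IPL and -0.65 ± 0.23 in SC (exact permutation p = 0.163). Within lane 1, with 3 IPL tumors against 8 SC tumors, the AE17 differences were -0.22 and 0.39, each with an exact permutation p of 0.0121.

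**Figure D3:**
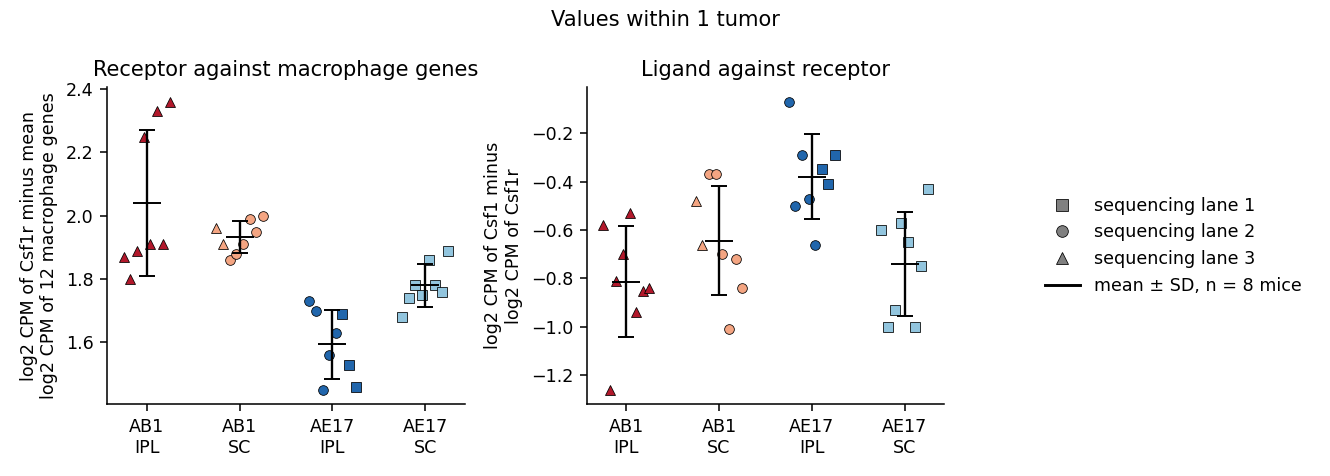
Log2 CPM of Csf1r minus the mean log2 CPM of 12 macrophage genes (left y axis), and log2 CPM of Csf1 minus that of Csf1r (middle y axis), in each tumor by group (x axes). Symbols give the lane and bars the mean ± SD of 8 mice. The AE17 IPL tumors lie between 1.45 and 1.73 on the left, against 1.68 to 1.89 in AE17 SC.

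A list of 16 signalling genes with a row was examined next. It held genes that act downstream of these receptors. It also held adaptors, such as Hcst, and transcription factors, such as Spi1 and Irf8, that are not particular to them. In AB1 IPL tumors 6 of the 16 fell (edgeR adjusted p of 0.05, median -0.25), against 10.7% of all genes tested. In limma-voom 9 fell, without mice 2 and 4 it was 10, and none rose in edgeR, DESeq2 or limma-voom. In AE17 none passed in edgeR (median 0.08), where 1 was higher and 1 lower at an unadjusted p of 0.05, and none in DESeq2. In limma-voom, which called 3959 of all genes there, 3 were higher and 1 lower. With the lane as a covariate none passed in AB1 in edgeR, and 6 were lower at an unadjusted p of 0.05. The interaction passed for 5 of them, all more negative in AB1, against 8.62% of all genes tested that passed as negative. The 6 that fell were named after their values were seen. They were Tyrobp, the DAP12 adaptor that couples to myeloid receptors (-0.56, adjusted p = 0.00399), the related adaptors Fcer1g (-0.65) and Hcst (-1.16), the kinases Fes (-0.48) and Pik3cd (-0.75), and Irf8, a transcription factor of monocyte and dendritic cell development (-0.64). The most abundant genes of the list, Stat3 (log2 difference -0.21, adjusted p = 0.121) and Shc1 (0.08, adjusted p = 0.379), did not pass in AB1. The part of cell content or of these receptors in the levels of the listed genes was not tested.

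Among 8 feedback genes and targets of STAT5 or STAT3, the transcription factors that GM-CSF and G-CSF receptors activate, 5 fell in AB1 IPL tumors (median -0.30) and none rose in edgeR, DESeq2 or limma-voom. All 8 fell in limma-voom and without mice 2 and 4, and 1 fell with the lane as a covariate. The share of all genes that passed as lower in AB1 in edgeR was 10.7%. Cish, a SOCS-family feedback inhibitor and STAT5 target, fell from 31.8 CPM in SC to 10.96 CPM in IPL tumors (log2 -1.55, edgeR adjusted p = 0.000445). Socs2 (-0.84), Pim1 (-0.82), the phosphatase gene Inpp5d (-0.31) and the ubiquitin ligase gene Cbl (-0.29) made up the rest and were named after their values were seen. In AE17 1 of 8 rose, the survival gene Bcl2l1 (0.23, adjusted p = 0.0281), which did not pass with the lane as a covariate (0.26, adjusted p = 0.189) or with no filter (0.22, adjusted p = 0.064), and Cish had a difference of 0.08. The interaction passed for 4 of the 8, Cish (-1.61, adjusted p = 0.000668), Socs2, Pim1 and Bcl2l1. It passed as negative for 8.62% of all genes tested. Many cytokines act on these targets, and the part of Csf2 or Csf3 in their levels was not tested.

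Csf1, Csf2 and Csf3 are classically induced by IL-1, TNF and NF-κB. A list of 10 inducers tested held such genes and also Il6, Il33, Ets1, Jun and Fos. Of these 10, 6 fell in AB1 IPL tumors in edgeR (median -0.37), against 10.7% of all genes, and 2 fell with the lane as a covariate. None rose in the AB1 fits of edgeR, DESeq2 or limma-voom, while an edgeR fit of all 32 mice had 1 higher and 5 lower. Nfkb1 fell from 213 to 155 CPM (-0.48, edgeR adjusted p = 0.000147). Il1a fell from 4.10 to 0.572 CPM (log2 -2.85, adjusted p = 2.65e-05), although it entered the test through its level in the SC group, where it is high. Il1b (-0.82), Tnf (-1.15), Il33 (-1.17) and Ets1 (-0.25) also fell and were named after their values were seen. None of the 10 passed in AE17 in edgeR (median -0.12), where 1 was higher and 3 lower at an unadjusted p of 0.05. DESeq2 called 2 lower there, and limma-voom, which called 3959 of all genes in AE17, called 1 higher and 3 lower. Il3 and Il5, the other ligands that share the beta common chain, were at 0.0660 CPM or less and 0.292 CPM or less in every group mean. Of the other partners, Sdc1, the syndecan that binds IL-34 (log2 0.30, adjusted p = 0.0922), and Adam17, the protease that releases membrane-bound CSF1 (-0.18, adjusted p = 0.274), did not pass in AB1.

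Marker genes of cell types that are known to make or answer these cytokines were compared between the sites. Of all genes tested in edgeR, 10.7% passed as lower in AB1 and 3.13% in AE17, where limma-voom called 3959 genes in either direction. All 8 T and NK cell genes fell in AB1 IPL tumors (median -1.24), with a summed level of 21.7 to 87.0 CPM against 101 to 205 CPM in SC, and Klrb1c, an NK cell receptor, fell by 2.41 on the log2 scale (edgeR adjusted p = 1.38e-05). In AE17 2 of the 8 fell in edgeR, and 2 others were higher at an unadjusted p of 0.05. DESeq2 called 2 higher and 2 lower there, and limma-voom 4 higher and 3 lower. The 3 mast cell genes tested fell in AB1 IPL tumors, where their summed level was 1.84 to 42.9 CPM against 50.9 to 122 CPM in SC. In AE17 IPL tumors the mast cell median was -1.30, and 1 of 3 fell in edgeR, Ms4a2 of the IgE receptor (-1.51, adjusted p = 0.0404), and 2 in limma-voom. Monocyte genes fell in 3 of 5 cases, with Ccr2, a chemokine receptor of inflammatory monocytes, at -1.17 (adjusted p = 0.00159), and dendritic cell genes in 4 of 8, with Itgax, the integrin CD11c, at -2.15 (adjusted p = 9.01e-06). In AE17 1 of 8 dendritic cell genes fell in edgeR, Cd209a (-1.72, adjusted p = 0.00598), and 4 in limma-voom. With the lane as a covariate, 3 T and NK cell genes, 1 mast cell gene, 1 dendritic cell gene and no monocyte gene fell in AB1 (edgeR), with 3 monocyte genes lower at an unadjusted p of 0.05. The part of these cell types in the level of Csf2 was not tested.

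Genes of neutrophils, the lineage on which G-CSF acts, rose in 3 of 6 cases and fell in 1 in AB1 IPL tumors in edgeR. DESeq2 called 6 of 9 higher and 1 lower, whereas limma-voom called 0 higher and 2 lower. Of all genes tested in edgeR, 12.3% passed as higher and 10.7% as lower in AB1. The summed level of the neutrophil genes was 4.04 to 661 CPM in AB1 IPL, with mice 3 and 4 at 661 and 401 CPM, and 12.03 to 27.3 CPM in AB1 SC. IPL mice 6, 7 and 8, at 5.78, 4.04 and 5.17 CPM, lay below every SC tumor. S100a8, a calprotectin subunit gene (3.81, edgeR adjusted p = 0.0097) rose, as did Ltf, a granule protein gene (5.40, adjusted p = 0.00553), and Il1r2 fell (-1.23, adjusted p = 0.000751). Ltf had a mean of 0.570 CPM in SC and entered the test through its level in the IPL group, where it is high. In AE17 IPL tumors, where Csf3 was higher, none of 7 neutrophil genes passed in edgeR (3 higher and 1 lower at an unadjusted p of 0.05). DESeq2 called 2 of 9 higher there and limma-voom 1 higher and 1 lower of 7, and the summed level of 18.3 to 35.2 CPM overlapped that of AE17 SC tumors (11.03 to 36.3 CPM). Fibroblast and endothelial genes each rose in 3 cases in AB1 IPL tumors, of 4 and 5 tested, and without mice 2 and 4 in 2 and 1. Skeletal muscle genes rose in 7 of 8 cases there, while in AE17 0 of 8 passed in edgeR, DESeq2 or limma-voom and 0 at an unadjusted p of 0.05. With the lane as a covariate none of the neutrophil, fibroblast, endothelial or skeletal muscle genes passed in AB1 (edgeR), and 3, 2, 0 and 3 of them had an unadjusted p under 0.05. Of the remaining lists in AB1 IPL minus SC, 0 eosinophil genes rose and 2 fell of 2 tested in edgeR, while DESeq2 called 2 higher and 2 lower of 5. B cell genes rose in 3 of 3 cases in edgeR and in 1 of 3 in limma-voom, adipocyte genes in 1 of 3 in edgeR, and cardiac muscle genes went 1 higher and 1 lower of 2. With the lane as a covariate 0 eosinophil, B cell or adipocyte genes passed in edgeR, and 1, 2 and 0 had an unadjusted p under 0.05. Keratinocyte, lung epithelium and mesothelial genes had 1 tested gene each, which did not pass in edgeR, while DESeq2 called 1 mesothelial gene higher and 1 lower of 5. In AE17 IPL minus SC, 1 of 2 B cell genes rose in edgeR, Cd79a (4.07, adjusted p = 0.0338), as did 1 of 2 cardiac muscle genes, Tnnt2 (1.49, adjusted p = 0.0195), and 1 of 2 eosinophil genes fell, Ccr3 (-1.09, adjusted p = 0.0394). Cd79a and Ccr3 entered the test through the group in which they are high, and these 3 genes were named after their values were seen. The fibroblast median was -0.43 in AE17, where 0 of 4 genes passed in edgeR and 2 were lower in limma-voom, while 0 of 5 endothelial genes passed in edgeR and 2 were higher in limma-voom. Of all genes, limma-voom called 3959 in AE17. DESeq2 called 3 of 5 mesothelial genes higher there. In AE17 0 genes of these 6 lists passed with the lane as a covariate (edgeR), and 1 each of the B cell, cardiac muscle, eosinophil, fibroblast and endothelial lists had an unadjusted p under 0.05. The part of these tissues in the members' levels was not tested.

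**Figure D4:**
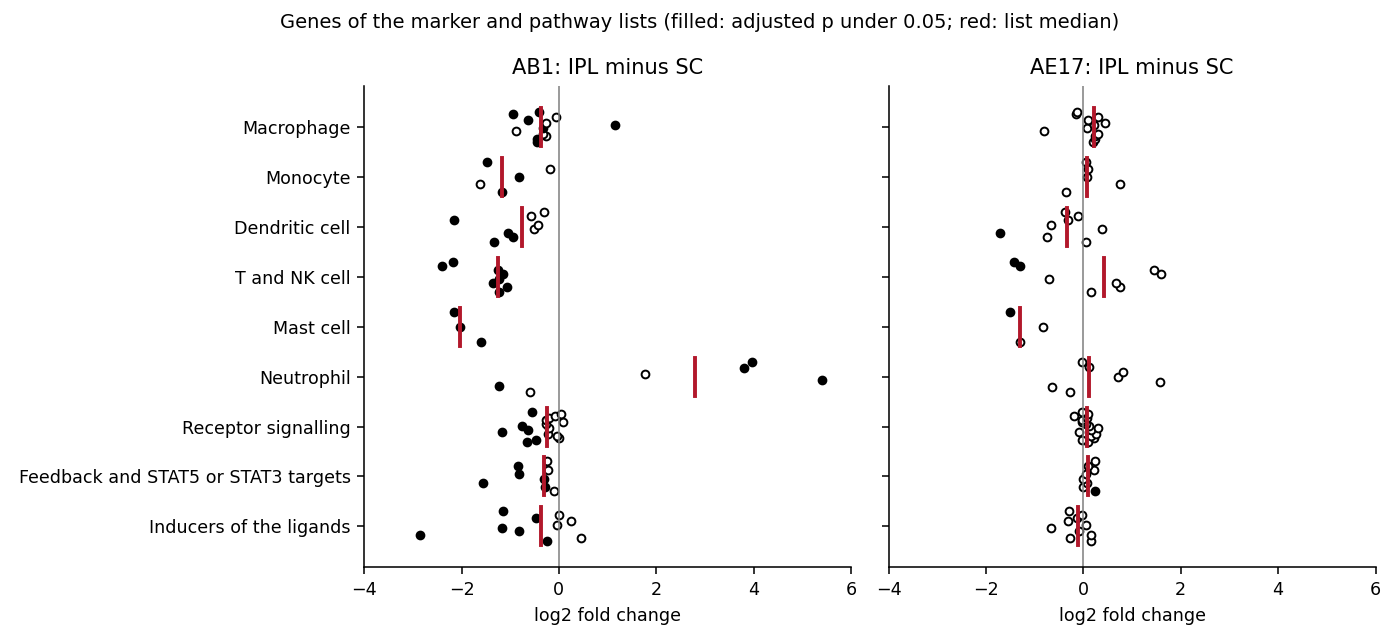
Log2 fold change of IPL minus SC (x axes) of each tested gene in 9 marker and pathway lists (y axis), in AB1 (left) and AE17 (right). Filled points passed an adjusted p of 0.05 in edgeR, and red lines give list medians. All 8 T and NK cell genes are filled and below 0 in AB1, with a list median of -1.24.

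Genes whose levels varied most like a member from mouse to mouse were found over 32 tumors after removal of the 4 group means, among 13982 genes, as a description. For Csf1r they included Ctsa (Pearson r = 0.86, Spearman rho = 0.81), a lysosomal protease, and Fcgr3 (r = 0.84, rho = 0.80), an Fc receptor. For Csf1 they were Steap1 (r = 0.86, rho = 0.70), Arhgef7 (r = 0.80, rho = 0.67) and Phactr4 (r = 0.79, rho = 0.76), none of which is a macrophage marker of the list used here. For Il34 they were Fbxo4 (r = 0.80, rho = 0.66), Mcf2l (r = 0.80, rho = 0.64) and Ncstn (r = 0.78, rho = 0.69).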

How the data were processed

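RNA-seq libraries (50 bp single end reads, 3 lanes) were made from 32 tumors. The authors aligned reads to the mouse genome (named mm11) with HISAT2 v2.0.4 and deposited raw counts per gene, made with summarizeOverlaps. The deposited counts were used as given. The table had no row for 3151 of 21951 protein-coding genes of GENCODE M21, 2774 of them on chromosomes 10 and 12 to 19, so that several list genes were not analysed here.

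Comparisons were run with edgeR 4.0.16 in R 4.3.3: filterByExpr within the groups compared, TMM scaling, the robust quasi-likelihood test and Benjamini-Hochberg adjustment over all genes tested. CPM used 1 TMM scaling over all libraries, and log2 CPM a prior count of 2. Members that did not pass the filter and relative values were tested by two-sided exact permutation. The main tests had 12870 splits of the mice, whose smallest possible p is 0.000155. Tests within 1 lane or with a replicate block had fewer splits, and so a larger smallest possible p. The study's own test, DESeq2 (1.42.0 here), limma-voom with sample quality weights (limma 3.58.1), other filters and scalings, lane, replicate block and leaving out mice were alternatives. The tests were checked on simulated data. Nothing in the labels pairs mice beyond a shared replicate number.

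Members, gene lists and alternatives were chosen with earlier results of these data known. Named list genes are the 2 most abundant of a list and its largest called rise and fall at each site comparison, unless stated otherwise. Genes of most like pattern were sought for members of at least 1 CPM. Some genes that these rules name are not reported here.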

Additional observations from a re-analysis of the deposited data

Results flagged for a closer look

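Il34 in AB1 IPL mouse 2 stood apart from the rest of its group at 59.1 CPM, with the nearest mouse at 48.5 CPM, a gap of 0.562 of the group's range. This was 1 of 20 groups of 8 examined, and such a gap occurs by chance in about 1 of 20. The same mouse had the highest Csf1r level of its group (474 CPM), the highest mesothelial sum (76.4 CPM) and the lowest skeletal muscle sum (104 CPM). The site difference of Csf1 differed between the models by -0.64 on the log2 scale, and that of Csf2 by -2.24, both by a test of the interaction in edgeR (adjusted p = 0.000378 and 0.00108).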

How the results depend on the processing

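Csf2 stayed called in AB1 IPL minus SC under all alternatives in which it was tested (it was too low for a minimum of 10 counts), and Il34 in both comparisons of the models, without lane. In AB1 IPL minus SC, 1 member passed with lane as a covariate and 1 within lane 3 (Csf2 in both), against 3, and 3 to 4 passed when leaving out 1 mouse. In AE17 IPL minus SC, 2 members passed by limma-voom with sample quality weights and 0 with no filter, with at least 10 counts in every mouse, at an adjusted p under 0.01, with lane as a covariate or within lane 1, against 1, and 0 to 2 when leaving out 1 mouse. For the interaction, 1 member passed under the 10-count minimum and 1 with lane as a covariate, against 2, and 3 passed by limma-voom with sample quality weights, 3 without AE17 IPL mice 5 and 8, and 2 to 3 when leaving out 1 mouse.

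Genes that passed overall went from 3374 to 386 (AB1) and from 840 to 1 (AE17) with lane as a covariate, and to 169 and 14 within 1 lane. Both kinds of fit took the site difference from 1 lane, lane 3 in AB1 and lane 1 in AE17, and are not separate checks. AE17 gave 3959 by limma-voom with sample quality weights, which change both test and weighting, and 1774 by DESeq2. Deviations of same-numbered mice correlated at -0.30 to 0.05 in AB1, with 0 of 8 pairs over 0.1, and at -0.27 to 0.27 in AE17, with 5 of 8. Differently numbered mice were not compared in this way, so that these values do not decide whether mice were paired in AE17. The main fits did not take the numbers as pairs. The replicate block left 3, 1, 3, 3 and 2 members called in the 5 comparisons, as without it, and changed no call of a relative value (Csf1r against macrophage genes in AE17 -0.19, exact permutation p = 0.0234). It ended the AE17 call of Bcl2l1 (0.23, adjusted p = 0.054). Of the gene lists in AB1, it moved neutrophil genes higher from 3 to 0, skeletal muscle from 7 to 3, endothelial and B cell from 3 to 1 each, adipocyte from 1 to 0, and cardiac muscle lower from 1 to 0. In AE17 it moved macrophage genes higher from 0 to 1, B cell from 1 to 0, T and NK cell genes lower from 2 to 1, mast cell from 1 to 2 and eosinophil from 1 to 0.

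Values that changed sign were small and did not pass: in AE17 IPL minus SC, Il34 at 0.01 by limma-voom and 0.02 without IPL mice 5 and 8, Csf2 at 0.19 without those mice (-0.20 to 0.12 when leaving out 1 mouse), Il34 -0.10 to 0.01, and Csf3r at 0.06 with lane as a covariate and 0.06 within lane 1. In AB1 minus AE17 in IPL, Csf1r was -0.09 by limma-voom and -0.05 without AB1 IPL mice 2 and 4, and Csf3r 0.04 without AE17 IPL mice 5 and 8 and -0.17 to 0.07 when leaving out 1 mouse. Csf2 in the same comparison, which was below the filter, was -0.79 with a prior count of 0.5 (exact permutation p = 0.0556), -0.74 without AB1 IPL mice 2 and 4 (exact permutation p = 0.0586) and -0.84 to -0.54 when leaving out 1 mouse. Csf3 in AB1 IPL minus SC was 0.34 without AB1 IPL mice 2 and 4, 0.63 with a prior count of 0.5, and 0.35 to 0.54 when leaving out 1 mouse, where 4 of 16 tests (without IPL mouse 5, 6 or 7 or SC mouse 4) had an exact permutation p under 0.05, the lowest 0.0336. Alternatives without AB1 IPL mice 2 and 4, and those for members below the filter, were chosen after seeing the data.

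Csf2 and Csf3 rested on 1 to 39 reads a library, and differences in members with no row were not analysed, including Csf2rb against Csf2rb2. Lane was not entered in the comparisons of the models within a site, which shared no lane.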
